A study of Mus musculus with 6 samples.

Results

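The genes described here encode the nuclear-made subunits of the mitochondrial respiratory chain and of ATP synthase, the machinery of oxidative phosphorylation. They were picked from the expression table by gene symbol alone: the lettered and numbered Nduf genes, Sdha to Sdhd, the Uqcr genes and Cyc1, the Cox4 to Cox8 families and every Atp5 gene. This gave 87 of 17971 genes: 39 for complex I, 4 for complex II, 9 for complex III, 18 for complex IV and 17 for complex V. Ndufa4 and its relative Ndufa4l2 were counted with complex IV, where the Ndufa4 protein is now placed despite its name.

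RNA was taken from dorsal root ganglia, the sensory ganglia beside the spinal cord, of male mouse embryos at E13.5. The 3 cKO libraries came from Wnt1-cre+/-;Ybx1fl/fl embryos, and the 3 Ctrl libraries from Ybx1fl/fl littermates, so both groups carry floxed Ybx1 and only cKO carries Cre. Wnt1-Cre acts in the neural crest lineage that makes ganglion neurons and glia, and the blood and endothelial cells in the same ganglia come from other lineages. An effect of Cre itself and an effect of losing Ybx1, an mRNA-binding protein, cannot be told apart. The question is which mRNAs differ between the groups. Ybx1 checked the labels: it stood at 927, 809 and 817 CPM (CPM: counts scaled to an equal effective library size) in Ctrl replicates 1 to 3 and at 137, 122 and 108 in cKO.

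The respiratory chain passes electrons from NADH (complex I) or succinate (complex II) through complex III to oxygen at complex IV, and the proton gradient so built drives ATP synthase, complex V. A few core subunits of complexes I, III, IV and V are made from mitochondrial DNA; no mitochondrially encoded gene is in the table used here, so everything below concerns nuclear transcripts. Growing sensory neurons carry mitochondria along their axons to supply growth cones, and many genes of the chain share binding sites for the transcription factors NRF1, GABP (an ETS factor) and YY1.

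No member passed in the main model, which has no pairing. Cox6a1 rose and Cox7a2l fell in a model that pairs libraries by number, described below, and both belong to complex IV. Any link between their promoters and these changes was not tested. The 250 bases before each start site are shown 5′ to 3′ on the strand of the gene (RefSeq, GRCm38.p6, minus strand of the chromosome for both), with capitals for matches to the motifs searched. Cox6a1 is at chr5:115348959-115349208 and Cox7a2l at chr17:83514334-83514583.
Cox6a1: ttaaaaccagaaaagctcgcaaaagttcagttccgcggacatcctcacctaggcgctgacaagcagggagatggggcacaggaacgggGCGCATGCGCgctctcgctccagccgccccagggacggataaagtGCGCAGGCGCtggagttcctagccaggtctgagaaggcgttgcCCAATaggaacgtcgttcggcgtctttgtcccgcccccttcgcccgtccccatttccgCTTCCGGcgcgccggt
Cox7a2l: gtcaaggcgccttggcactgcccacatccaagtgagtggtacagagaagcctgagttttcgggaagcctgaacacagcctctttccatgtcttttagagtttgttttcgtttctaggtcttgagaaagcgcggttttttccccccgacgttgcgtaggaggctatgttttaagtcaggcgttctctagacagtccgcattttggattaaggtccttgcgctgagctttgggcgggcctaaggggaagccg
The Cox6a1 stretch holds GCGCATGCGC at -162 to -153 and GCGCAGGCGC at -117 to -108, both matches to the NRF1 motif searched, the second on the opposite strand. It also holds CCAAT at -74 to -70 and CTTCCGG at -16 to -10, the ETS motif CCGGAAG read on the opposite strand, with positions counted back from the start site. The Cox7a2l stretch holds none of the 4 motifs, nor do the 50 bases after its start, which says only that these letters are not in this window.

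Promoters of the set were then compared with all promoters for the same letters on both strands, over windows of 300 bases (250 before and 50 after the start). RefSeq windows were found for 69 of the 87 genes, 74 windows in all, against 32851 windows over all genes. The NRF1 motif was in 24.3% of member windows and 4.6% of all windows. CCGGAAG was in 23.0% and 8.9%, the YY1 motif in 6.8% and 0.9%, and CCAAT in 41.9% and 37.4%. Within the set the YY1 motif was in 4 of 35 complex I windows and 1 of 18 complex V windows, and in none of the 21 windows of complexes II to IV. These matches describe letters and are not evidence of binding.

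Transcripts of all 5 complexes were abundant in the ganglia, and 72 of the 87 genes had a mean between 100 and 2000 TPM. On the length-corrected TPM scale (TPM, as deposited) the 87 genes together took 3.85% to 4.29% of each library, and 0.931% to 1.11% of raw counts. Complex V summed to 14450 ± 511 TPM in Ctrl and 15040 ± 286 in cKO (SD, n = 3), and complex IV to 11910 ± 495 and 12480 ± 480. Complex I, with 39 genes, summed to 9833 ± 392 and 10310 ± 306. Complex III stood at 2836 ± 83.4 and 3017 ± 80.1, and complex II, the only complex that is also an enzyme of the tricarboxylic acid cycle, at 741 ± 37.7 and 777 ± 29.8. The summed TPM of all members was 41280, 39570 and 38480 in Ctrl replicates 1 to 3 and 42860, 41310 and 40700 in cKO. It was higher in cKO within each number, while the groups overlapped. In summed CPM the third pair was nearly level, at 9403 in Ctrl and 9419 in cKO. No test was made of these sums.

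**Figure D1:**
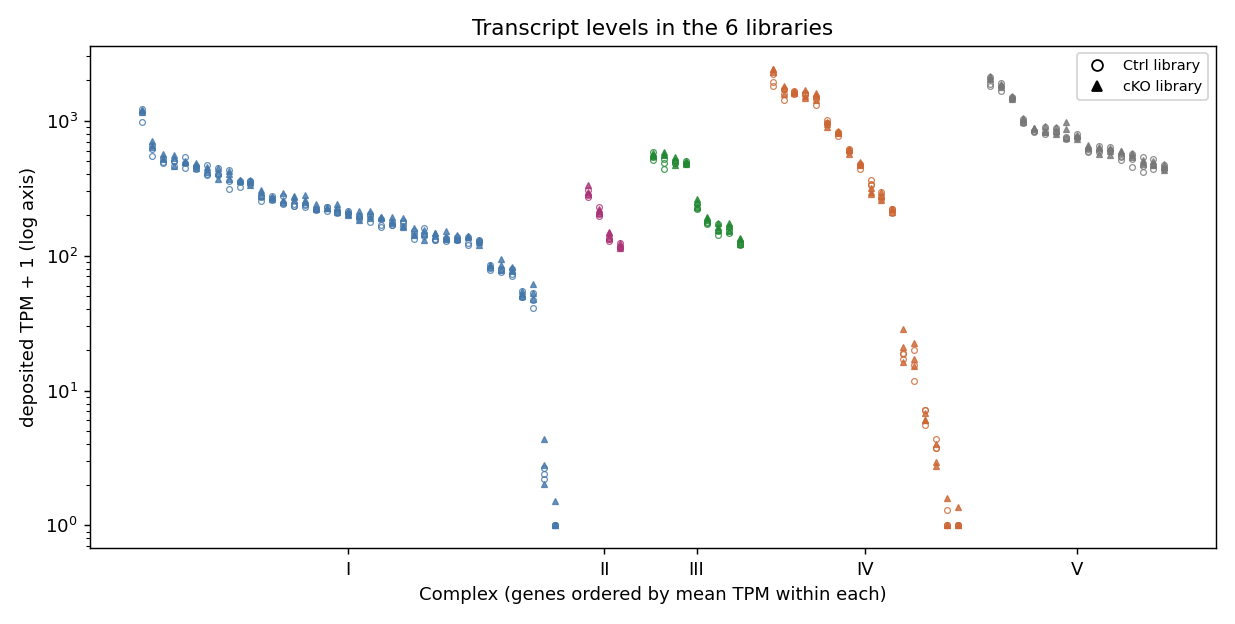
Deposited TPM + 1 (log axis) of each of the 87 genes in each library, by complex and ordered by mean TPM, with open circles for the 3 Ctrl and filled triangles for the 3 cKO libraries. Of the 87 genes 72 have a mean between 100 and 2000 TPM, with the symbols of both groups close together, and 13 lie below 100 TPM, 7 of complex I and 6 of complex IV.

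Most members are short, which affects their measurement. The effective transcript length implied by the deposited counts and FPKM had a median of 393 bases over the tested members against 2772 over all tested genes, and 17 members were under 200 bases. TPM divides by that length, so for the shortest transcripts a small error in it moves the value: Ndufa3 reached a mean of 1150 TPM from 48.9 CPM with an effective length of 75 bases, and Atp5md (the DAPIT subunit of ATP synthase) 2000 TPM from 95.8 CPM with 84 bases. For that reason TPM is used only for levels, and changes are given from counts.

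No member passed the test between cKO and Ctrl. Of the 87 genes 83 had enough counts to be tested; the other 4, Cox6a2, Cox7b2, Ndufb4b and Ndufs6b, had 1 to 19 counts over all libraries together. In edgeR's quasi-likelihood model without pairing 0 of 83 members had an adjusted p under 0.05, where 0.481% of all 14338 tested genes did. The smallest adjusted p in the set was 0.454 (Cox7a2l), and 2 members had an unadjusted p under 0.05, 1 higher (Cox6a1) and 1 lower (Cox7a2l), against 10.7% of all genes, 4.62% higher and 6.1% lower. The groups of CPM values did not overlap for 2 of 83 members (2.41%), both higher in cKO, while 7.83% of all genes were separated as higher and 8.77% as lower.

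The precision of this result can be read from the intervals. For all 78 members at 10 CPM or more, the 95% interval of the log2 fold change (cKO over Ctrl) lay between -0.42 and 0.46. The median log2 fold change of the set was 0.03, with 57 of 83 above 0 and 26 below, beside a median of 0.004, 51.4% above and 48.6% below 0 over all genes tested. Members with an effective length under 1000 bases had a median of 0.022, with 65.7% above 0. Non-members under 1000 bases, whose median length was 691 bases against 351 for those members, had 0.034, with 59.7% above 0. The 16 members of 1000 bases or more had 0.054, with 81.2% above 0. Non-members of 1000 to 2000 bases had 0.018, with 55.5% above 0, and those of 2000 or more -0.004, with 48.8%. With an offset for each library's trend over effective length the set's median was 0.01, with 48 of 83 above 0. The median was 0.042 for complex I, 0.045 for complex II, 0.075 for complex III, -0.01 for complex IV and 0.004 for complex V. The median SE of a single member was 0.10. Without Ctrl replicate 1 alone the set's median was 0.11 and without cKO replicate 1 alone it was -0.05; both of these libraries were high in the set, as described below. Leaving out both libraries of a number gave 0.02, 0.03 and 0.05 for numbers 1, 2 and 3, and the block gave 0.03.

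**Figure D2:**
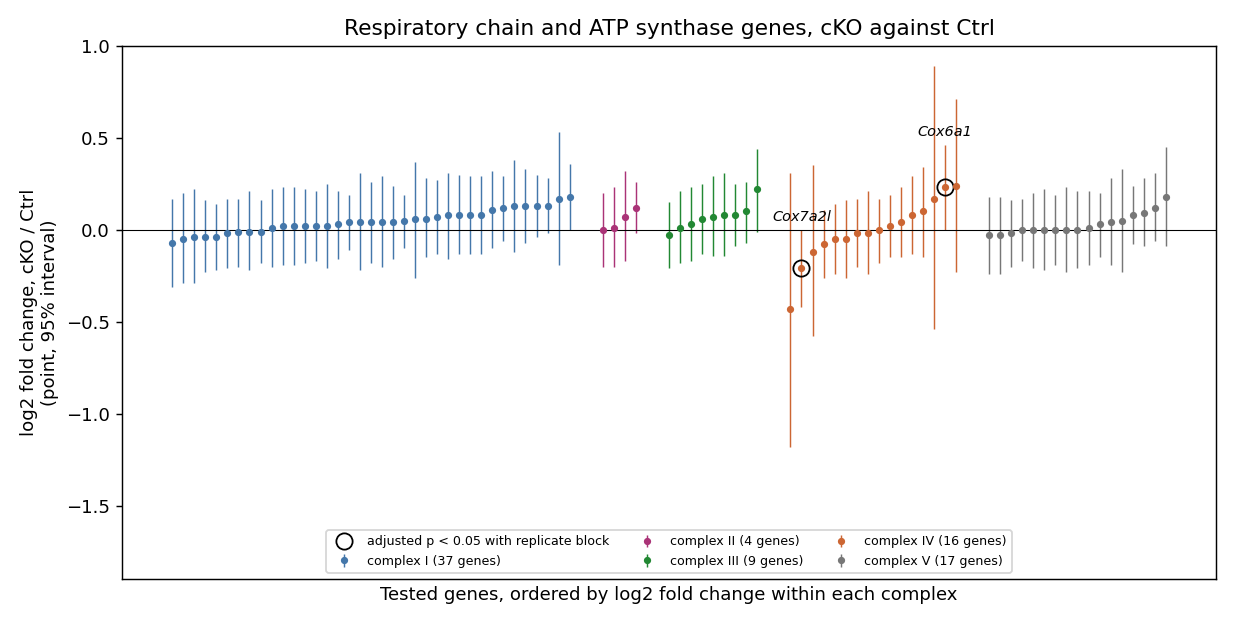
Log2 fold change of the 83 tested genes, cKO over Ctrl, with 95% intervals from the model without pairing, by complex. Points of complexes I, II, III and V lie between -0.07 and 0.22; the widest intervals belong to the low isoforms of complex IV, and rings mark Cox6a1 (0.23) and Cox7a2l (-0.21), which passed with the replicate number as a block and not in the unpaired model of all 6 libraries.

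Libraries numbered 1 stood above the others in nearly all of these genes, in both genotypes. The CPM of 81 of 83 members in Ctrl replicate 1 was above the mean of Ctrl replicates 2 and 3, and the same count, 81 of 83, held in cKO. The median excess of replicate 1 was 0.18 in Ctrl and 0.25 in cKO on the log2 scale, against 0 and 0 over all tested genes. Summed CPM of the set was 10690, 9364 and 9403 in Ctrl and 11000, 9648 and 9419 in cKO. The excess was present in every complex, with medians from 0.14 to 0.25 in Ctrl and 0.23 to 0.26 in cKO.

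Short genes outside the set had much the same excess. Among 1401 tested non-members with an effective length under 1000 bases the median excess of replicate 1 was 0.17 in Ctrl and 0.23 in cKO. Among the 67 members under 1000 bases it was 0.19 and 0.26. Below that limit length was not matched: the median was 691 bases for these non-members and 351 for these members. Non-members of 2000 bases or more had -0.05 and -0.06. The 16 longer members, at 1000 bases or more, had 0.15 and 0.17, and the 3189 non-members of 1000 to 2000 bases 0.09 and 0.10. Globin and other erythroid genes did not follow this pattern: their sum was 4516, 3106 and 4599 CPM in Ctrl and 10660, 2592 and 4221 in cKO, so that they were high in cKO replicate 1 alone, while the OXPHOS genes were high in both replicate 1 libraries. What sets the replicate 1 libraries apart was not tested.

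**Figure D3:**
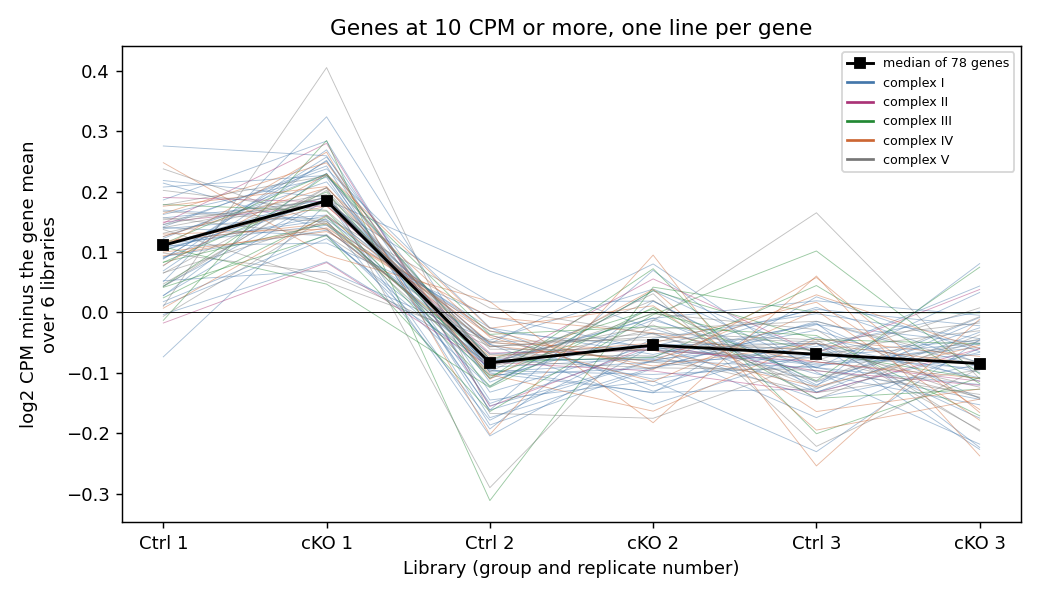
Log2 CPM of each of the 78 members at 10 CPM or more, minus its mean over the 6 libraries, in same-numbered pairs, with the median in black. The median is 0.11 in Ctrl 1 and 0.18 in cKO 1 and between -0.08 and -0.05 in the other 4 libraries.

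**Figure D4:**
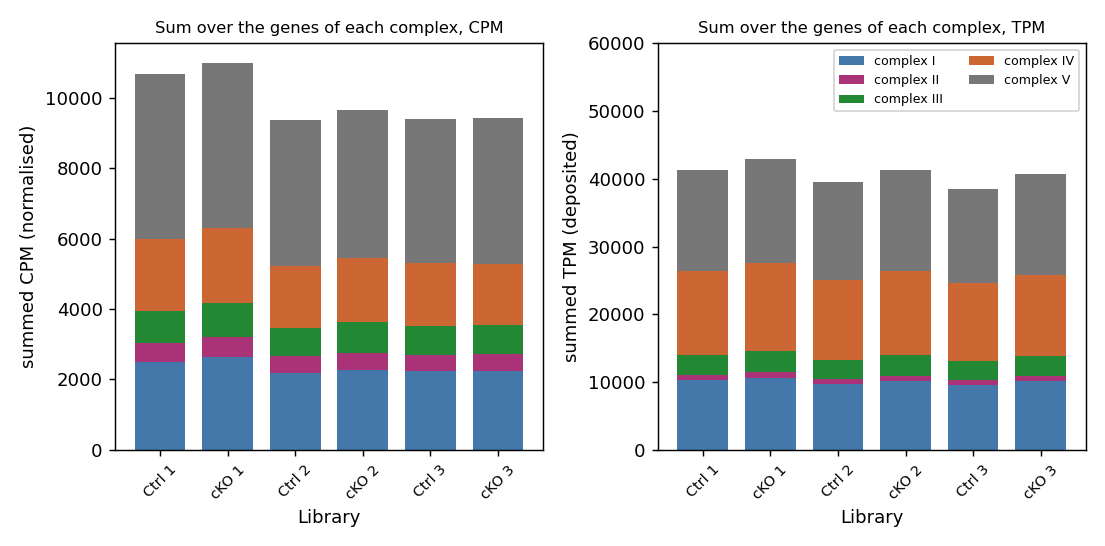
Summed normalised CPM (left) and summed deposited TPM (right) of each complex in each library, as stacked bars from 0. Within each group the replicate 1 bar is the tallest on both scales, and complex V is the largest block in every bar.

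Same-numbered libraries were therefore also compared as pairs, with the number as a block in the model. With it 2 of 83 members passed (2.41%), 1 higher and 1 lower, where 5.33% of all tested genes did, 1.76% higher and 3.56% lower. Pairing narrowed the intervals: for the 78 members at 10 CPM or more they lay between -0.32 and 0.37, and for 67 of them within 0.25 of 0. Over the pairs 16 of 83 members (19.3%) were higher in cKO in all 3, where 19.6% of all tested genes were, and 1 (1.2%), Cox7a2l, was lower in all 3, where 20.3% were.

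Cox6a1 (chromosome 5, 115345652 to 115348958, GRCm38) encodes the widely expressed form of subunit VIa at the outer face of cytochrome c oxidase, and was the most abundant member by TPM. It stood at 326, 263 and 254 CPM in Ctrl replicates 1 to 3 and at 364, 323 and 300 in cKO. Each cKO library was above the Ctrl library of its number, and the groups overlapped only because Ctrl replicate 1 was above cKO replicates 2 and 3. The log2 fold change was 0.23 (SE 0.10, edgeR adjusted p 0.465), and with the block 0.23 (SE 0.05, 1.17-fold, edgeR adjusted p 0.00833). The blocked call was lost without both libraries numbered 2 (log2 fold change 0.20, edgeR adjusted p 0.228).

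Cox7a2l (chromosome 17, 83501917 to 83514333) encodes a relative of subunit VIIa known for joining complexes III and IV into supercomplexes. It stood at 170, 145 and 149 CPM in Ctrl and at 153, 126 and 121 in cKO. Each cKO library was below the Ctrl library of its number, and cKO replicate 1 lay above Ctrl replicates 2 and 3. The log2 fold change was -0.21 (SE 0.10, edgeR adjusted p 0.454), and with the block -0.22 (SE 0.05, edgeR adjusted p 0.0207), or 0.861 of the Ctrl level. The blocked call was lost without both libraries numbered 2 or both numbered 3 (edgeR adjusted p 0.189 and 0.0761) and with the DESeq2 test (adjusted p 0.0763). Its close relative Cox7a2, the usual subunit of that position, stood at 81.2, 66.9 and 69.7 CPM in Ctrl and 83.1, 64.2 and 68.3 in cKO. Its log2 fold change was -0.02, with a 95% interval of -0.24 to 0.21.

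Markers of ganglion cell types moved under the same pairing, and their part in these 2 calls was not tested. Of 8 Schwann cell and satellite glia markers 5 were higher with the block, where 1.76% of all tested genes were higher and 3.56% lower. The glia list summed to 1314 to 1419 CPM in Ctrl and 1437 to 1559 in cKO. Of 8 neuron markers 2 were lower with the block, Isl1 and Stmn2, and the list summed to 11600 to 11910 CPM in Ctrl and 11210 to 11830 in cKO. The other neuron markers did not pass. Tubb3 had a log2 fold change of 0.01, Nefl and Nefm 0.06, Pou4f1 and Snap25 -0.08 and Elavl4 -0.07. Of 8 macrophage markers 1 was higher with the block, with sums of 72.4 to 82.0 CPM in Ctrl and 88.9 to 132 in cKO. Spinal cord markers were low, at 1.67 to 2.15 CPM in sum in Ctrl and 2.71 to 4.84 in cKO. Pax6, 1 of the 2 of 6 that could be tested, was higher in cKO (3, 3 and 4 counts in Ctrl, 13, 18 and 15 in cKO, edgeR adjusted p 0.0449 without the block), and Lhx1, Pax2 and Lbx1 reached 26, 17 and 9 counts in cKO replicate 3 alone, with 0 to 2 elsewhere. The other tested marker, Nkx6-1, was counted 30, 19 and 29 times, against 27, 29 and 16 in cKO (log2 fold change -0.15), and Olig2 had 0 to 2 in every library. In bulk tissue fewer cells of a type and less RNA per cell cannot be told apart.

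**Figure D5:**
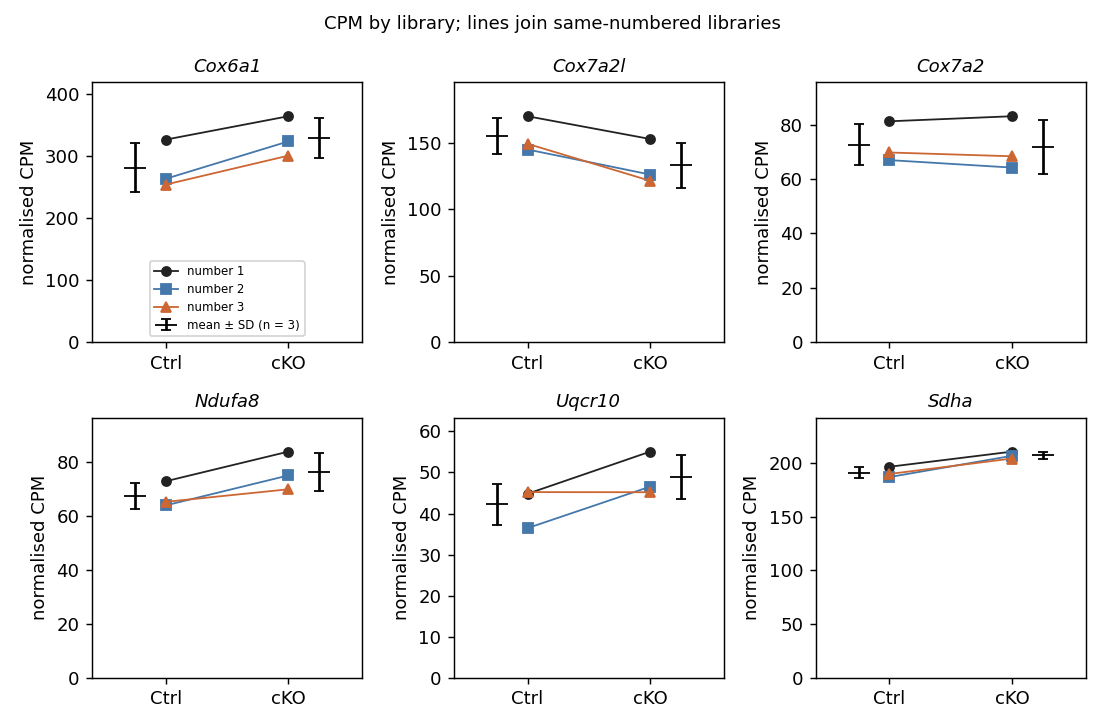
Normalised CPM of 6 members in Ctrl and cKO, lines joining same-numbered libraries, with mean ± SD (n = 3) beside them; axes start at 0. Cox6a1 rises and Cox7a2l falls along each of the 3 lines, Cox7a2 stays nearly level, and the replicate 1 line is highest in 5 panels, while in Uqcr10 the Ctrl ends of numbers 1 and 3 nearly coincide.

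Complex I takes electrons from NADH through 7 nuclear-encoded core subunits, the flavin and iron-sulfur proteins, and a shell of accessory subunits. The core genes had log2 fold changes from -0.04 to 0.13. Ndufv1, the flavin-binding subunit, was at 103, 93.8 and 95.8 CPM in Ctrl and at 112, 105 and 105 in cKO. The groups did not overlap, the log2 fold change was 0.13 (SE 0.07), and the edgeR adjusted p was 0.553 without and 0.159 with the block.

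Accessory genes of complex I ranged from -0.07 for Ndufa12 to 0.18 for Ndufa8. Ndufa8, an accessory subunit on the intermembrane side, stood at 72.8, 63.8 and 65.1 CPM in Ctrl and at 83.8, 74.9 and 69.8 in cKO. It was higher in each pair without passing in either model (edgeR adjusted p 0.478, and 0.07 with the block). Ndufa12, near the matrix arm, was at 69.6, 56.2 and 59.1 CPM in Ctrl and at 68.3, 56.8 and 51.3 in cKO, with both replicate 1 libraries highest. Among the most abundant by TPM, Ndufa3 had 1213, 1169 and 982 TPM in Ctrl and 1189, 1155 and 1195 in cKO. Ndufv3, a small flavoprotein subunit, had 616, 549 and 658 TPM in Ctrl and 708, 640 and 660 in cKO. Neither passed, with log2 fold changes of 0.02 and 0.07 (edgeR adjusted p 0.967 and 0.852).

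Some complex I rows are copies whose reads may be shared. Ndufb4c was tested at a mean of 5.45 CPM (log2 fold change 0.17, SE 0.16), and the low Ndufb4b row had 2 to 6 counts per library. Both, like Ndufb4 itself, held fractional estimated counts, a mark of reads split between genes, and their values are uncertain. Ndufs6b, a pseudogene in RefSeq, had 1 count in cKO replicate 1 and 0 elsewhere. Fractional counts were found in 8 of the 87 members (9.2%), the others being Ndufa13, Ndufb11, Ndufv2, Uqcrc2 and Cox5a, against 15.4% of all genes.

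Complex II oxidises succinate and has 4 subunits, all nuclear. Sdha, the flavoprotein, was at 196, 187 and 190 CPM in Ctrl and at 210, 207 and 204 in cKO, the tightest replicates of the complex. The groups did not overlap and the log2 fold change was 0.12 (SE 0.06, edgeR adjusted p 0.579, and 0.179 with the block). Sdhb, the iron-sulfur subunit and the highest by TPM, was at 145, 118 and 122 CPM in Ctrl and at 159, 126 and 120 in cKO (log2 fold change 0.07). The membrane anchors Sdhc and Sdhd had log2 fold changes of 0.01 and 0.00. Sdhc was at 120, 99.7 and 96.3 CPM in Ctrl and at 120, 98.8 and 101 in cKO. Sdhd was at 73.0, 62.8 and 62.2 CPM in Ctrl and at 74.4, 63.0 and 60.8 in cKO, so that in both anchors the replicate 1 libraries were the highest and the groups overlapped.

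Complex III hands electrons from ubiquinol to cytochrome c. The 4 larger subunits, the cytochrome Cyc1, the Rieske protein Uqcrfs1 and the core proteins Uqcrc1 and Uqcrc2, had log2 fold changes from 0.07 to 0.10. Uqcr10, a small subunit next to cytochrome c1, had the largest of the complex. It stood at 44.8, 36.4 and 45.2 CPM in Ctrl and at 55.1, 46.6 and 45.2 in cKO. The log2 fold change was 0.22 (SE 0.10, edgeR adjusted p 0.487, and 0.0929 with the block), and the third pair was level. Uqcrh, the acidic hinge protein, had the lowest value, -0.03, with 74.4, 66.4 and 72.4 CPM in Ctrl and 77.8, 66.7 and 64.7 in cKO. Uqcr11, the highest by TPM, stood at 47.7, 41.3 and 49.7 CPM in Ctrl and at 50.6, 46.2 and 43.2 in cKO (log2 fold change 0.01).

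Complex IV reduces oxygen, and its nuclear subunits include pairs of isoforms that differ by tissue. In TPM the widely expressed form was far above the tissue form in each family listed here. Cox8a was the only Cox8 gene among the members, so its family could not be compared. Cox6a1 had a mean of 2180 TPM and Cox6a2, the heart and muscle form, 0.148. Cox7a2 had 275 TPM and Cox7a1, also of heart and muscle, from 10.7 to 21.5 in the 6 libraries, the latter from 9 to 18 counts over an effective length of 89 bases. Cox4i1 had 959 TPM and Cox4i2, the form of lung and hypoxic tissue, 2.59. Cox6b1 had 1630 TPM and the testis form Cox6b2 19.1. Cox7b had 217 TPM and the testis form Cox7b2 0.0633, which is 1 count in 1 library.

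Apart from Cox6a1 and Cox7a2l with the block, no gene of these families passed in either model. Cox4i1, the regulatory subunit IV, was at 261, 239 and 254 CPM in Ctrl and at 269, 229 and 218 in cKO (log2 fold change -0.08, SE 0.09). Cox8a, which had 1640 TPM, was at 263, 217 and 205 CPM in Ctrl and at 278, 241 and 212 in cKO (0.10, SE 0.11). Cox6b1 was at 181, 163 and 161 CPM in Ctrl and at 185, 157 and 157 in cKO (-0.02, SE 0.08). The groups of these 3 genes overlapped, with the replicate 1 library the highest of each group. Cox7b was at 93.3, 86.6 and 82.3 CPM in Ctrl and at 95.6, 85.1 and 80.8 in cKO, a log2 fold change of 0.00.

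The low isoforms could not be compared as closely. Counts of Cox4i2 were 15, 11 and 11 in the Ctrl libraries and 9, 7 and 12 in those of cKO, with a log2 fold change of -0.43 and a 95% interval of -1.18 to 0.31. Cox7a1 counts were 17, 9 and 12, against 13, 13 and 18 in cKO (interval -0.54 to 0.89). Cox6b2 counts were 40, 42 and 38, against 51, 35 and 59 in cKO (interval -0.23 to 0.71). These intervals are wide because the counts are few. Skeletal muscle markers were low as well, at 7.30 to 11.7 CPM in sum over 10 genes in the 6 libraries. Ndufa4 was at 181, 168 and 153 CPM in Ctrl and at 201, 172 and 157 in cKO (log2 fold change 0.08). Its hypoxia-induced relative Ndufa4l2 was counted 43, 38 and 28 times, against 36, 36 and 31 in cKO (interval -0.58 to 0.35).

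ATP synthase couples the F1 head, which makes ATP, to a membrane rotor. The log2 fold changes of its 17 genes lay between -0.03 and 0.18. Atp5b, the catalytic beta subunit and the member with the most counts, was at 1426, 1281 and 1288 CPM in Ctrl and at 1394, 1295 and 1316 in cKO. Its log2 fold change was 0.00, with a 95% interval of -0.17 to 0.17. Atp5a1, the alpha subunit, was at 1019, 896 and 887 CPM in Ctrl and at 960, 898 and 907 in cKO, so that its replicate 1 libraries were also the highest of each group.

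Atp5e, the epsilon subunit of the head, had the largest value of the complex, 0.18 (SE 0.12, edgeR adjusted p 0.684). It stood at 58.2, 51.5 and 54.7 CPM in Ctrl and at 76.6, 51.2 and 58.1 in cKO, and without cKO replicate 1 its log2 fold change was 0.00. Leaving out that library alone also lowered the median of the set, to -0.05. Without both libraries numbered 1 the log2 fold change of Atp5e was 0.04. Its log2 differences within pairs 1 to 3 were 0.39, -0.01 and 0.09, so most of the rise lay in the first pair.

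Subunit c, which forms the rotor ring, is made from 3 genes encoding the same mature protein. Atp5g1 was at 158, 131 and 126 CPM in Ctrl and at 155, 131 and 129 in cKO. Atp5g2, which had the lowest log2 fold change of the complex (-0.03), was at 137, 115 and 120 CPM in Ctrl and at 136, 122 and 107 in cKO. Atp5g3 was at 154, 139 and 135 CPM in Ctrl and at 170, 145 and 142 in cKO (log2 fold change 0.09). The 3 genes had similar levels, 479, 610 and 621 mean TPM. Atp5j2, the membrane subunit f, was at 160, 139 and 134 CPM in Ctrl and at 157, 136 and 140 in cKO, and Atp5md at 95.2, 96.1 and 88.4 in Ctrl and 107, 93.3 and 95.2 in cKO (log2 fold changes 0.00 and 0.08).

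Genes that assemble the complexes or supply them did not pass between the groups either. In the model without pairing 0 of 16 complex I assembly factors, 0 of 4 for complex II, 0 of 6 for complex III, 0 of 21 for complex IV and 0 of 4 for complex V were called. The same held for 15 electron carrier and coenzyme Q genes, 11 genes of mitochondrial DNA expression, 10 tested regulators of mitochondrial biogenesis and 20 genes of mitochondrial carriers and import. Median log2 fold changes of these lists lay between -0.03 and 0.06. Examples are Cycs, which encodes cytochrome c (log2 fold change 0.02, SE 0.08), and Slc25a4, the ATP/ADP carrier (0.01, SE 0.09). Among the regulators Nrf1 had -0.01, Gabpa -0.01 and Yy1 0.02. The coactivator Ppargc1a had 0.18 (SE 0.15) and its relative Ppargc1b -0.24 (SE 0.15). With the block and all 6 libraries none of these lists had a called member. Over all tested genes 0.481% were called without pairing and 5.33% with the block. With the block and without both libraries numbered 3, Coq8a, Etfdh, Mpc1 and Slc25a12 passed, where 836 of 14365 tested genes did. Without both numbered 1, Hspe1 passed with and without the block and Vdac1 with the block only.

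The tricarboxylic acid cycle and glycolysis had no called member without pairing, and a few with it. Over all tested genes 0.481% passed without pairing, and with the block 1.76% passed as higher and 3.56% as lower. Suclg1, a subunit of succinyl-CoA ligase, was the only 1 of 18 cycle genes to pass with the block, as higher: it was at 65.3, 57.8 and 58.0 CPM in Ctrl and 75.2, 65.1 and 66.8 in cKO (log2 fold change 0.19, blocked edgeR adjusted p 0.0466). Of 19 glycolysis genes 2 were higher and 2 lower with the block. Aldoc, an aldolase, was at 22.4, 21.4 and 22.2 CPM in Ctrl and 29.8, 29.8 and 26.4 in cKO (0.38, blocked edgeR adjusted p 0.00577). Ldhb, a lactate dehydrogenase subunit, rose by less (0.21, adjusted p 0.0182). Ldha, the other such subunit listed, had -0.15 and did not pass (blocked edgeR adjusted p 0.0669). The neuronal enolase gene Eno2 (-0.28, adjusted p 0.0401) and the neuronal glucose transporter gene Slc2a3 (-0.26, adjusted p 0.0311) were lower. The Suclg1 call was lost with the block under DESeq2 size factors, the length offset, limma-voom and the DESeq2 test, and that of Eno2 under limma-voom and library totals. All 5 calls were lost with the block under the DESeq2 test, and all but that of Eno2 without both libraries numbered 2. With the block the Eno2 and Suclg1 calls were also lost without number 1, and those of Eno2, Slc2a3 and Suclg1 without number 3. Other glycolysis genes were gained with the block. They were Ldha under the length offset, Eno1, Pfkl and Pgk1 under library totals, and Ldha and Eno1 without number 1. Over all tested genes these 3 fits called 751, 799 and 1252.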

How the data were processed

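RNA-seq libraries were made from 3 cKO and 3 Ctrl samples. The authors deposited estimated counts, TPM and FPKM per gene and library; HISAT2 2.2.1, Bowtie2 2.4.5 and RSEM 1.3.1 with GRCm38 are named in the submitters' processing notes, with no role or order. Depth was 16464264 to 17446385 estimated counts per library. Counts were rounded, filtered with filterByExpr (14338 of 17971 genes kept), scaled by TMM and tested two-sided by quasi-likelihood with robust dispersions (edgeR 4.0.16, run under R 4.3.3), with p-values Benjamini-Hochberg adjusted over all genes, threshold 0.05. SEs came from the fold change and F; intervals are 95%. Deposited TPM served for levels, and deposited FPKM with counts for effective length. The submitters call the samples biological; the labels do not say whether ganglia of several embryos were pooled.

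After group means were subtracted, the Ctrl and cKO libraries of a number had correlations of 0.328, 0.205 and 0.184 across genes, their sample codes begin alike and the controls are littermates, so the numbers were taken as pairs. Named genes were the called members, the 2 highest by TPM and the extreme log2 fold changes of each complex, and isoform families; Ndufv1, Atp5b, Atp5a1, Ndufb4c and the copies were added after their values were seen. Members and lists were chosen with earlier results of these data known. Models were tested on simulated data, with changes set only in genes of higher counts. The simulated libraries had no shift tied to transcript length, so this check does not cover that feature of the number 1 libraries. Alternatives used DESeq2 1.42.0 and limma 3.58.1. Figures used matplotlib 3.10.9.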

Additional observations from a re-analysis of the deposited data

How the results depend on the processing

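The number of OXPHOS genes called was 0 without pairing under DESeq2 size factors, library totals, no filter, a minimum of 10 counts in every library, the DESeq2 test and limma-voom, and from 0 to 0 on leaving out single libraries. Over all tested genes these fits called from 44 to 184, and from 18 to 104 without a single library. The number of OXPHOS genes called was 2 with the replicate block (Cox6a1 and Cox7a2l), 2 without both libraries numbered 1, and 0 without both numbered 2 or 3. Over all tested genes these 4 fits called 764, 731, 8 and 2. With the block the OXPHOS count was 2 under DESeq2 size factors or limma-voom, 3 with library totals (Ndufa8 added) and 1 with the DESeq2 test. The same fits called 731, 638, 799 and 265 of all 14338 tested genes. The OXPHOS count was 3 with the block and without number 1 (Uqcrc1 added), 0 without number 2, and 3 without number 3, where Cox6a1, Ndufa8 and Uqcr10 passed as higher. Over all tested genes 1252 of 14364, 260 of 14383 and 836 of 14365 passed in these fits. An offset for each library's trend over effective length gave 1 OXPHOS gene (Cox7a2l, edgeR adjusted p 0.0334), and 2 with the block. It gave 331 of all tested genes, and 751 with the block. The cause of these differences was not tested. The alternatives with an offset, with the block and another scaling or test, and without both libraries of number 2 or 3 were chosen after seeing the data. Among genes of the other mitochondrial and glycolysis lists 0 were called without pairing, from 0 to 0 on leaving out single libraries, 1 with the DESeq2 test, 5 with the replicate block, 4 without number 1 and 1 with the length offset. With the block the count was 5 with the length offset, 4 with DESeq2 size factors, 7 with library totals, 3 with limma-voom and 0 with the DESeq2 test. It was 7, 1 and 6 with the block and without number 1, 2 or 3. The median log2 fold change of the set was 0.03 and ranged from -0.05 to 0.11, its lowest value with cKO replicate 1 left out and its highest with Ctrl replicate 1 left out. Scaling by library totals moved the median of all genes to 0.031 and that of the set to 0.06. Without Ctrl replicate 1 the log2 fold change of Cox6a1 was 0.35 and without cKO replicate 1 it was 0.15; that of Cox7a2l was -0.14 and -0.32. The median level in TPM was the same with a pseudocount of 1 or 0.1. Few counts limit the low isoforms, and short transcripts limit TPM.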
